A study of Mus musculus with 6 samples.

Results

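The T cell receptor complex and its first signaling steps were described here by 9 genes, *Cd3d*, *Cd3e*, *Cd3g*, *Cd4*, *Cd8a*, *Cd8b1*, *Lck*, *Zap70* and *Lat*, chosen by symbol and each matched to 1 Ensembl identifier among the 49671 genes of the count table. All 9 had enough counts to be among the 16089 genes tested. Liver RNA came from 3 SHMT2fl/fl mice (labelled WT), which carry the floxed gene, and 3 SHMT2HKO mice (labelled KO), in which the same floxed gene is deleted by Cre under the albumin promoter, that is, in hepatocytes and not by design in blood cells. All 6 were males on the C57BL/6J background, started at 4 weeks of age on the AMLN diet, whose fat, fructose and cholesterol are high, stayed on it for 18 weeks, and were harvested at 22 weeks. Each library is whole liver from 1 mouse. No T cells were isolated.

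T cells recognize peptides bound to major histocompatibility molecules through a receptor whose 2 variable chains cannot signal alone. The CD3 chains carry the signal inward, CD4 or CD8 binds the histocompatibility molecule and brings the kinase LCK, LCK phosphorylates the CD3 chains, and ZAP70 then docks there and phosphorylates the adaptor LAT, on which the downstream enzymes assemble. In fatty liver disease, T cells are among the leukocytes that gather in the inflamed lobule.

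The 3 CD3 genes lie side by side on chromosome 9 of GRCm38, *Cd3g* (44969572 to 44980431, minus strand), *Cd3d* (44981786 to 44987339, plus strand) and *Cd3e* (44998740 to 45009627, minus strand), within 40.1 kb. *Cd3g* and *Cd3d* are read in opposite directions from starts 1354 bases apart. *Cd8b1* (71322788 to 71337494) and *Cd8a* (71373427 to 71379173) are also neighbors, on the plus strand of chromosome 6, with 35.9 kb between them. *Cd4* is on chromosome 6 (124864692 to 124888221), *Lck* on chromosome 4 (129548344 to 129573641), *Zap70* on chromosome 1 (36761798 to 36782818) and *Lat* on chromosome 7 (126363824 to 126369570).

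The 250 bases before the annotated starts are shown for the 3 CD3 genes, which fell together, for the upstream start of *Lck*, and for *Zap70*, which did not pass the test. The sequences are from RefSeq on GRCm38.p6, 5′ to 3′ on the strand of the gene, and capitals mark matches to an ETS core (AGGAAG), a RUNX motif (TGTGGT), an E-box (CAGCTG) or a TATA box (TATAAA), searched on both strands.
*Cd3g* (chr9:44980432-44980681, minus strand): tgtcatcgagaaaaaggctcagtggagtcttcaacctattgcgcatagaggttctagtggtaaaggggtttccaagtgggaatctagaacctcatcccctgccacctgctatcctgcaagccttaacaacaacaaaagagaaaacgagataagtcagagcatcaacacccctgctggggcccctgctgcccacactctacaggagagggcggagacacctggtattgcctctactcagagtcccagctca
*Cd3d* (chr9:44981536-44981785, plus strand): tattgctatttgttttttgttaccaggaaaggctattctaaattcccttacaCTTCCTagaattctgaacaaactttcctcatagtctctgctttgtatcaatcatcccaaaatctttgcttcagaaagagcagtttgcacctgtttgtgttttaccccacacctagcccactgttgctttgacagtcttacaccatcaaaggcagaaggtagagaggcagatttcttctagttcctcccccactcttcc
*Cd3e* (chr9:45009612-45009861, minus strand): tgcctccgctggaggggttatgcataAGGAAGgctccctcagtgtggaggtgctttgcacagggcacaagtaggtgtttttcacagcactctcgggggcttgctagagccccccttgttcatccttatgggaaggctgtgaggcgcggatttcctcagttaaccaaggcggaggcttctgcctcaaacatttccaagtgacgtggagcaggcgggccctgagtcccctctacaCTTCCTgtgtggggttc
*Lck* (chr4:129573642-129573891, minus strand): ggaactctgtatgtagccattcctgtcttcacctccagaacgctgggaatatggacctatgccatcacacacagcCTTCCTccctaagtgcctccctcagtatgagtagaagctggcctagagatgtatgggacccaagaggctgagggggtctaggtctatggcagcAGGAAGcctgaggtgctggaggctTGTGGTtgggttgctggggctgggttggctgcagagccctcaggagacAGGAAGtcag
*Zap70* (chr1:36761548-36761797, plus strand): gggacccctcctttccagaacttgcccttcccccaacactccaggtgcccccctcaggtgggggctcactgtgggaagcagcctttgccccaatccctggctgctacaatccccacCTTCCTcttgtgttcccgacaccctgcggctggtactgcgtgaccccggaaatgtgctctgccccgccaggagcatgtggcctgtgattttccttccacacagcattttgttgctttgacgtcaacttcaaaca
Over the 10 starts that RefSeq gave for 7 of the 9 genes, the ETS core was found in 7, against 29.5% of 32851 windows of the same length before all listed starts. The RUNX motif was in 2 of the 10 starts, the upstream one of *Lck* and an internal one of *Zap70*, and in 4614 of all windows. The E-box and the TATA box were in 0 of the 10, and in 4271 and 4063 of all windows. The window of *Cd3g* held none of the 4 motifs, although *Cd3g* moved with *Cd3d* and *Cd3e* in the values given next. A match of this kind is a description of the letters only. *Cd4* and *Cd8b1* had no entry.

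Counts on genes ranged from 23090837 to 34089722 per library, so that 3 counts, taken as the floor, came to 0.0734 to 0.152 CPM (gene counts divided by the TMM-scaled library size, the scale of every CPM given here). The targeted gene *Shmt2* had 93.9 to 109 CPM in SHMT2fl/fl livers and 19.3 to 28.3 in SHMT2HKO livers. In the principal component analysis, the genotypes were apart on the first component, which held 68.5% of the variance. SHMT2HKO mouse 3 was nearest to the SHMT2fl/fl mice there, at 26.9 against 57.9 and 53.2 for SHMT2HKO mice 1 and 2. SHMT2HKO mouse 1 stood apart from SHMT2HKO mice 2 and 3 on the second component, which held 16.7%. The main log2 fold changes of *Cd4* and *Zap70* are given with and without SHMT2HKO mouse 1. Hepatocyte markers were abundant in every library, with *Alb* at a mean of 37545 CPM in SHMT2fl/fl and 55228 in SHMT2HKO livers. With the scaling used here (TMM), 56.9% of all genes that differed were lower in SHMT2HKO livers. That share was 67.5% with upper-quartile scaling, 90.1% without TMM and 96.3% with scaling to the ERCC spike-in RNAs, and the median of all genes moved by -0.42 without TMM and by -0.72 with the spike-ins, on the log2 scale.

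To ask whether the T cell genes differ between genotypes on this diet, each was taken from the quasi-likelihood fit of edgeR across all tested genes, with p-values adjusted over that whole set. Of the 9 genes, 7 fell in SHMT2HKO livers, while 16.5% of all tested genes fell, and all 9 estimates were below 0. The share of counts on mitochondrial genes also set the genotypes apart, at 3.25 to 3.63% in SHMT2fl/fl and 4.30 to 4.97% in SHMT2HKO libraries, as did the number of genes with a count, 23218 to 24340 against 20936 to 22703, and their part in these values was not tested. *Cd3d*, *Cd3e*, *Cd3g*, *Cd8a*, *Cd8b1* and *Lck* fell 4.25- to 6.43-fold and *Lat* 3.16-fold. *Zap70* and *Cd4* did not pass the test. The median log2 fold change of the 9 genes was -2.25, against 0.03 for all genes tested. The same 7 genes had every SHMT2HKO value under every SHMT2fl/fl value, as did 25.0% of all tested genes. In whole liver, fewer T cells and less RNA per T cell cannot be told apart.

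**Figure D1:**
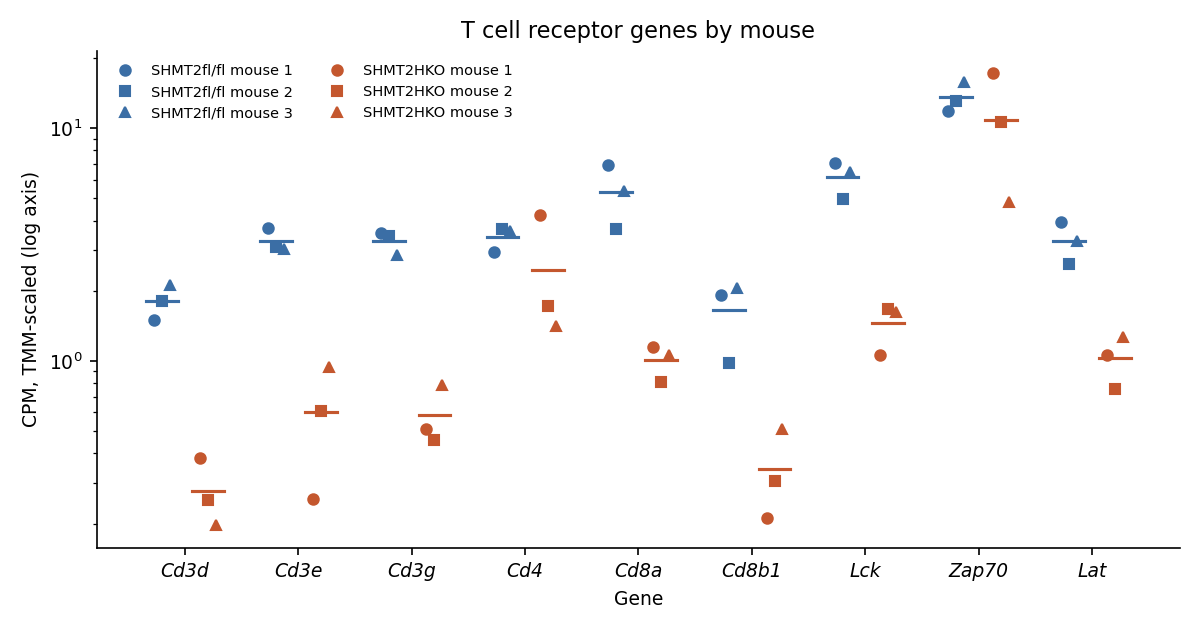
Level of each of the 9 genes in each mouse, as TMM-scaled CPM on a log axis, with SHMT2fl/fl mice in blue, SHMT2HKO mice in orange, a marker shape for each mouse number and a short line at the mean of 3 mice. The genotypes are apart for every gene except *Cd4* and *Zap70*, where SHMT2HKO mouse 1 lies above all SHMT2fl/fl mice.

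The CD3 chains, which carry the signal of the receptor inward, showed the largest fold changes of the 9, with intervals that overlap those of *Cd8a*, *Cd8b1* and *Lck*. *Cd3d*, the delta chain, had 61, 48 and 81 counts in SHMT2fl/fl mice 1, 2 and 3 and 9, 5 and 5 in SHMT2HKO mice 1, 2 and 3, which is 1.49, 1.81 and 2.11 CPM against 0.382, 0.253 and 0.197. Its highest SHMT2HKO value was well below its lowest SHMT2fl/fl value, and the log2 fold change was -2.68 (95% interval -3.58 to -1.79, adjusted p = 0.00267). *Cd3e*, the epsilon chain, had 3.72, 3.09 and 3.03 CPM in SHMT2fl/fl mice and 0.255, 0.608 and 0.945 in SHMT2HKO mice. The SHMT2fl/fl values lay close together, and SHMT2HKO mouse 1 was the lowest, with 6 counts. *Cd3e* fell by 2.43 on the log2 scale (95% interval -3.40 to -1.46, adjusted p = 0.00517). *Cd3g*, the gamma chain, had 3.52, 3.42 and 2.84 CPM in SHMT2fl/fl mice and 0.509, 0.456 and 0.787 in SHMT2HKO mice. It had the smallest adjusted p of the 9 genes, 0.0017, at a log2 fold change of -2.46 (95% interval -3.18 to -1.75).

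Of the co-receptors, both CD8 chains fell and *Cd4* did not pass the test. *Cd8a*, the alpha chain of CD8, which marks cytotoxic T cells and is also made by some dendritic cells, had 6.90, 3.69 and 5.35 CPM in SHMT2fl/fl mice and 1.15, 0.810 and 1.06 in SHMT2HKO mice. The SHMT2fl/fl mice were spread more widely than the SHMT2HKO mice, and the groups stayed apart (log2 fold change -2.39, 95% interval -3.10 to -1.68, adjusted p = 0.00183). *Cd8b1*, the beta chain, had 1.91, 0.978 and 2.06 CPM in SHMT2fl/fl mice and 0.212, 0.304 and 0.512 in SHMT2HKO mice, where it rested on 5, 6 and 13 counts. It fell by 2.25 on the log2 scale (95% interval -3.33 to -1.17, adjusted p = 0.0100). Without SHMT2fl/fl mouse 3 the log2 fold change was -2.06 and the adjusted p 0.0501, so the call was lost while the estimate moved little. *Cd4*, the co-receptor of helper T cells, had 2.94, 3.69 and 3.60 CPM in SHMT2fl/fl mice and 4.24, 1.72 and 1.42 in SHMT2HKO mice. SHMT2HKO mouse 1 was above all SHMT2fl/fl mice, while SHMT2HKO mice 2 and 3 were below them. The log2 fold change of *Cd4* was -0.47 with an interval from -1.40 to 0.47 (adjusted p = 0.43). Without SHMT2HKO mouse 1 it was -1.12 (adjusted p = 0.0155), so that 1 mouse decides the call, and over the other alternatives the adjusted p ranged up to 0.709.

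Among the signaling genes, *Lck* and *Lat* fell and *Zap70* did not pass the test. *Lck*, the kinase bound to CD4 and CD8, had 7.07, 4.93 and 6.47 CPM in SHMT2fl/fl mice and 1.06, 1.67 and 1.61 in SHMT2HKO mice. The lowest SHMT2fl/fl mouse was well above the highest SHMT2HKO mouse (log2 fold change -2.09, 95% interval -2.70 to -1.48, adjusted p = 0.00177). *Lat*, the membrane adaptor, had 3.94, 2.60 and 3.26 CPM in SHMT2fl/fl mice and 1.06, 0.760 and 1.26 in SHMT2HKO mice. It showed the smallest difference of the 7 genes that fell, at -1.66 (95% interval -2.36 to -0.96, adjusted p = 0.00613). *Zap70*, the kinase that binds phosphorylated CD3 chains, had 11.8, 13.02 and 15.7 CPM in SHMT2fl/fl mice and 17.1, 10.6 and 4.80 in SHMT2HKO mice. The SHMT2HKO mice ran from above all SHMT2fl/fl mice (mouse 1) to below them (mice 2 and 3), a wider spread than for any other of the 9 genes on the CPM scale. Its log2 fold change was -0.32 with an interval from -1.22 to 0.58 (adjusted p = 0.574). Without SHMT2HKO mouse 1 it was -0.82, and without SHMT2HKO mouse 3 it was 0.012.

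**Figure D2:**
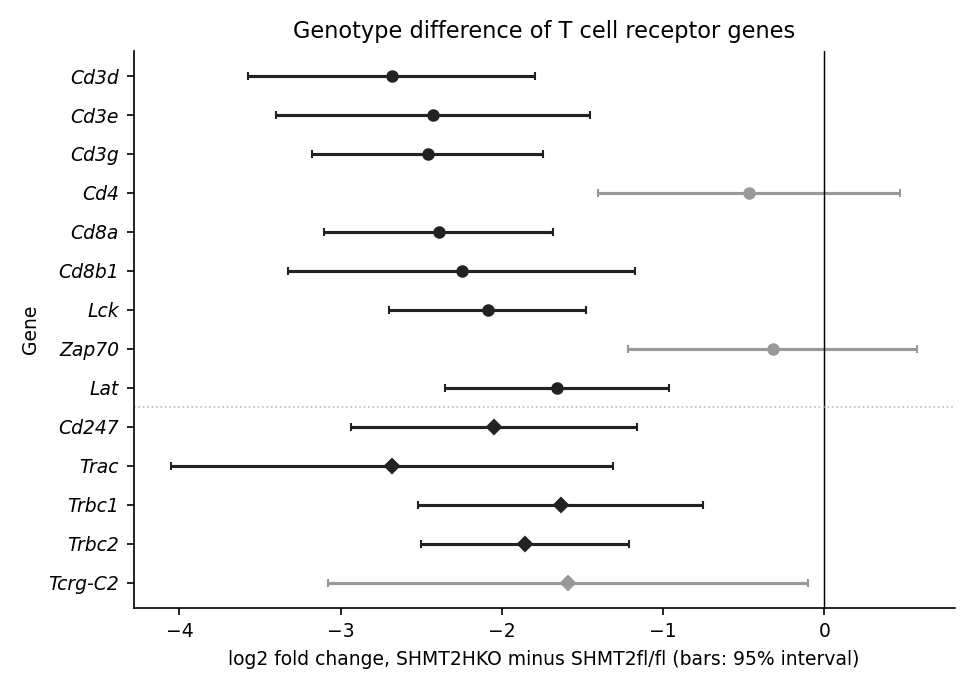
Log2 fold change of SHMT2HKO against SHMT2fl/fl livers for the 9 genes (circles) and the tested genes of the rest of the receptor complex (diamonds), with 95% intervals from edgeR's quasi-likelihood test, black where the adjusted p was under 0.05 and grey otherwise. The 7 black circles lie between -2.68 and -1.66, and the intervals of *Cd4* and *Zap70* cross 0.

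Levels of different genes were compared as CPM per kilobase of annotated exon (RPKM). In SHMT2fl/fl livers *Zap70* was the most abundant of the 9 at 4.52 ± 0.668 RPKM (SD, n = 3), followed by *Lck* at 2.10 ± 0.377 (SD, n = 3). *Cd8a*, *Lat*, *Cd8b1*, *Cd3g*, *Cd3d*, *Cd4* and *Cd3e* followed in that order, from 1.46 to 0.803 RPKM. *Zap70* was apart from *Lck* in all mice, and every later gene in this order overlapped its neighbor. In SHMT2HKO livers *Zap70* was again first, at 3.62 ± 2.06 RPKM (SD, n = 3), and again apart from the next gene, which was now *Cd4* at 0.610 ± 0.385 (SD, n = 3). The other 7 lay between 0.495 (*Lck*) and 0.148 (*Cd3e*), each overlapping its neighbor.

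Ratios of 2 genes within a library need no scaling between libraries. *Zap70* had 1.67, 2.64 and 2.43 counts for each count of *Lck* in SHMT2fl/fl mice 1, 2 and 3, and 16.2, 6.33 and 2.98 in SHMT2HKO mice 1, 2 and 3. All SHMT2HKO mice were above all SHMT2fl/fl mice, with mouse 1 far above the others. *Cd4* had 0.426, 1 and 0.673 counts for each count of *Cd8a* in SHMT2fl/fl mice and 3.70, 2.13 and 1.33 in SHMT2HKO mice, so *Cd8a* led or equaled *Cd4* in the first group and trailed it in the second. The ratio of *Cd4* to *Cd3e* was 0.789 to 1.20 in SHMT2fl/fl mice and 16.7, 2.83 and 1.5 in SHMT2HKO mice, and that of *Lat* to *Cd3e* was 0.841 to 1.08 against 4.17, 1.25 and 1.33. For each of these 4 ratios the exact permutation test, two-sided, gave p = 0.1, the smallest that 3 mice against 3 allow, and 0.25 after adjustment over the 10 ratios computed. Other ratios overlapped between genotypes, among them *Cd3d* to *Cd3e*, *Cd3g* to *Cd3e* and *Cd8b1* to *Cd8a*, the pairs of chains that form dimers.

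The rest of the receptor complex moved with the CD3 genes. Of its 8 listed genes, 5 were tested, and 4 fell. These were *Trac*, *Trbc1* and *Trbc2*, the constant regions of the alpha and beta chains, and *Cd247*, the zeta chain. *Trac* had 3.69, 2.22 and 2.58 CPM in SHMT2fl/fl mice and 0.127, 0.253 and 0.905 in SHMT2HKO mice, where mouse 1 had 3 counts, at the floor. The log2 fold change was -2.68 for *Trac* (adjusted p = 0.0130), -2.05 for *Cd247* (adjusted p = 0.00681), -1.86 for *Trbc2* (adjusted p = 0.00307) and -1.64 for *Trbc1* (adjusted p = 0.0160). *Trbc1* and *Trbc2* are near-identical copies, so reads that match both may be missing from these counts of unique hits. The fifth, *Tcrg-C2*, a constant region of the gamma chain of gamma-delta T cells, was at -1.59 (adjusted p = 0.1). The remaining 3 gamma-delta genes were too low to test, with 0 to 41 counts per library for *Trdc*, 2 to 18 for *Tcrg-C1* and 1 to 17 for *Tcrg-C4*. *Tcrg-C1* and *Tcrg-C2* are also close copies of each other. Without SHMT2fl/fl mouse 1, 6 of the 8 were tested and 2 fell, where 1763 of all 16262 genes tested fell.

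The variable segments, from which each T cell clone assembles its own receptor, were counted as a group. Of 176 listed segments, 69 had at least 1 count in the SHMT2fl/fl libraries and 23 in the SHMT2HKO libraries, which were on average less deep. Their summed counts were 143, 78 and 131 in SHMT2fl/fl mice and 15, 19 and 21 in SHMT2HKO mice, or 3.50, 2.93 and 3.42 CPM against 0.637, 0.962 and 0.827. The summed level was thus lower in every SHMT2HKO mouse than in every SHMT2fl/fl mouse. The mean log2 difference was -2.04.

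The lists further along the pathway held genes that fell and genes that did not pass the test. Of 21 genes that carry the signal onward, 20 were tested and 9 fell, with a median log2 fold change of -0.72. The adaptor *Skap1* had a value of -2.19 (adjusted p = 0.00565), the LAT-binding adaptor *Grap2* of -1.82 (adjusted p = 0.00477) and the transcription factor *Nfatc2* of -1.76 (adjusted p = 0.00217). *Nck2*, *Sh2d2a*, *Fyb* and *Vav1*, several of which other leukocytes or liver cells also make, were at -1.58, -1.58, -0.95 and -0.81. *Fyn*, *Lcp2*, *Plcg1* and *Nfatc1*, with values between -0.64 and 0.23, did not pass the test. Nor did *Themis*, which had the highest value of the list, 0.59 (adjusted p = 0.262). Of 15 inhibitors of receptor signaling, 14 were tested and 6 fell, with a median of -0.48. *Ubash3a*, a suppressor of T cell signaling, had 37, 27 and 26 counts in SHMT2fl/fl mice and 2, 0 and 5 in SHMT2HKO mice (log2 fold change -3.06, adjusted p = 0.0128). *Cd5* and *Cd6*, surface receptors of T cells, were at -2.04 and -1.84, and the phosphatase *Ptpn22* at -1.73. *Sla* and *Dok1* were at -1.34 and -1.26. Without TMM, 16 of the 20 and 11 of the 14 were called lower, as were 4923 of all 16089 genes tested. *Csk*, the kinase that restrains LCK and is made by most cells, was at 0.07 (adjusted p = 0.702).

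Of 9 T cell co-receptors and costimulators, 6 were tested and 4 fell, with log2 fold changes of -2.73 for *Cd96*, -1.98 for *Cd27*, -1.56 for *Cd2* and -1.49 for *Cd28* and a list median of -1.52. *Cd28*, the main costimulatory receptor, had 8, 4 and 11 counts in SHMT2HKO mice, and the adjusted p of *Cd2* was 0.0478, close to the threshold. Of 12 transcription factors, all tested, 3 fell and 2 rose, with a median of -0.65. Those that fell were *Tbx21*, which directs the type 1 program of T and NK cells (-2.60, adjusted p = 0.00662), *Runx3*, a factor of CD8 and NK cells (-1.5, adjusted p = 0.00316), and *Foxp3*, the factor of regulatory T cells (-1.5, adjusted p = 0.0476), which had 10 to 16 counts in SHMT2fl/fl and 2 to 4 in SHMT2HKO mice. Among those that rose was *Tox* (0.996, adjusted p = 0.0276), where 12.5% of all tested genes rose. *Tox* had 3.41 CPM in SHMT2fl/fl and 6.81 in SHMT2HKO livers.

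Of all tested genes, 16.5% fell, 12.5% rose and 25.0% were lower with no overlap between genotypes. Over these 5 lists together, 26 of 57 tested genes fell and 2 rose, and 38 were lower with no overlap. The number that fell was 13 of 59 tested without SHMT2fl/fl mouse 1, 16 of 57 without SHMT2fl/fl mouse 3 and 15 of 61 without SHMT2HKO mouse 2. Over all genes tested, 1763 of 16262, 1621 of 16336 and 1894 of 16813 fell without these mice, in the same order. For the genes that carry the signal onward the number that fell was 5 without any one of these 3 mice. For the costimulators it was at most 1 without any single SHMT2fl/fl mouse or without SHMT2HKO mouse 2.

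**Figure D3:**
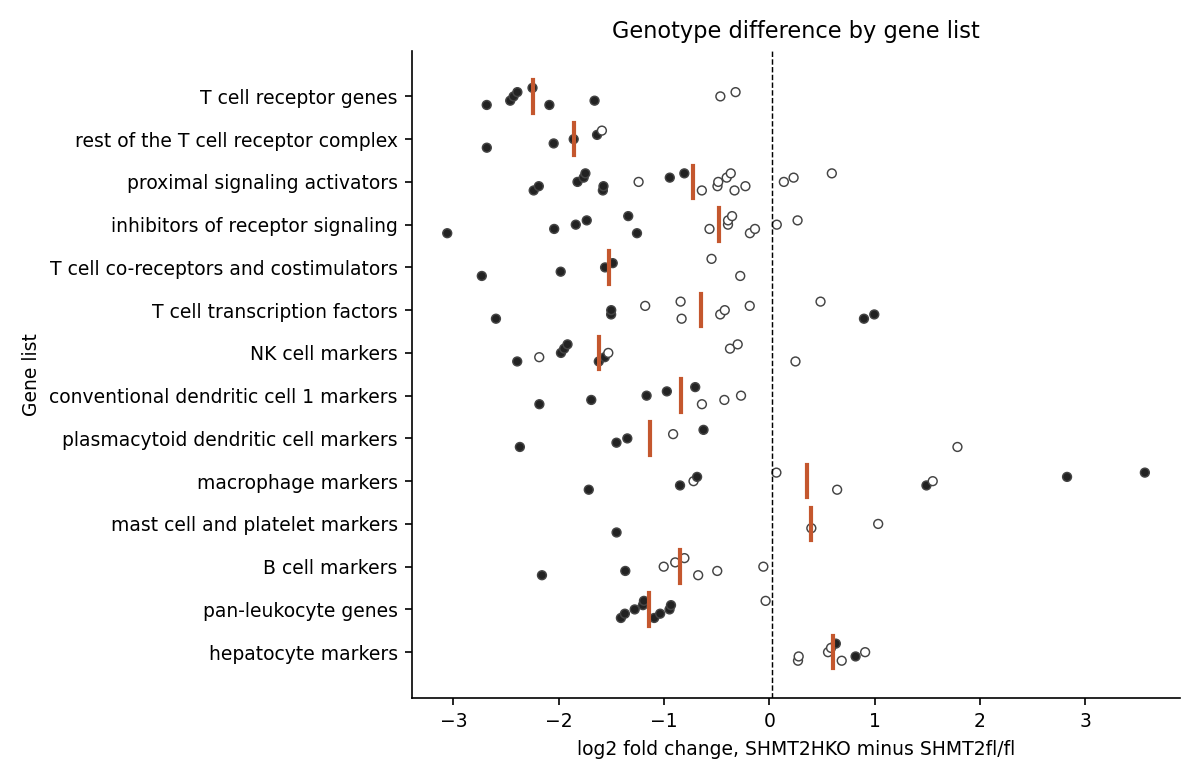
Log2 fold change of SHMT2HKO against SHMT2fl/fl livers for each tested gene of each list, filled where the adjusted p was under 0.05, with the list's median as an orange bar and the median of all genes tested, 0.03, as a dashed line. The medians of the 9 T cell receptor genes (-2.25), of the rest of the complex (-1.86) and of NK cell markers (-1.62) are the lowest.

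The 9 genes are not all made by T cells alone, so markers of other leukocytes were read beside them. NK cells express *Lck*, *Zap70*, *Lat* and *Cd247*, and of 11 tested NK cell markers 6 fell, with a median of -1.62. The granule protein gene *Nkg7*, shared with cytotoxic T cells, was at -2.39 and the receptor gene *Klrk1* at -1.62. Not passing the test were *Prf1* (0.25), *Eomes* (-0.30), *Gzma* (-0.37), *Klre1* (-1.53) and *Ncr1* (-2.19, adjusted p = 0.0794). The summed level of the 12 listed NK cell markers was 15.3 to 18.6 CPM in SHMT2fl/fl and 4.71 to 7.05 in SHMT2HKO mice, so the groups did not overlap. Of 8 markers of the conventional dendritic cells that carry CD8 alpha in lymphoid tissue, 5 fell (median -0.84), among them *Xcr1* (-1.69) and *Irf8* (-1.17). *Clec9a* (-0.43, adjusted p = 0.362), whose values overlapped, and *Batf3* (-0.64, adjusted p = 0.164) did not pass the test. The summed level of the 8 markers was 147 to 153 CPM against 82.0 to 107, most of it from *Irf8* and *Cadm1* (-0.27, adjusted p = 0.151). Of 6 tested markers of plasmacytoid dendritic cells, which can carry CD4, 4 fell (median -1.13), among them *Siglech* (-1.35). The summed level of the 8 listed was 41.2 to 46.4 against 22.2 to 36.3 CPM. Most of this sum came from *Tcf4*, with means of 34.4 and 22.3 CPM, so it says little of the other markers. *Pacsin1* was at 1.79 (adjusted p = 0.213), with 143 counts in SHMT2HKO mouse 1. The mast cell markers *Cpa3*, *Fcer1a*, *Ms4a2*, *Mcpt4* and *Tpsb2*, from a cell type that also uses LAT, had at most 2 counts in any library, and *Fcer1a* had 0 in all 6. The platelet marker *Itga2b* had 3.94 CPM in SHMT2fl/fl and 5.19 in SHMT2HKO livers, and of the 3 tested genes of the mast cell and platelet list *Pf4* fell (-1.45). The summed level of that list was 7.30 to 8.38 against 6.45 to 9.13 CPM. Of 8 B cell markers, *Cd22* (-1.37) and *Fcrla* (-2.16) fell (median -0.85), at a summed level of 13.17 to 15.2 against 4.58 to 8.66 CPM.

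Macrophage markers moved in both directions. Of 10, 3 rose and 3 fell. *Timd4*, *Clec4f* and *Vsig4*, markers of resident Kupffer cells, had log2 fold changes of 3.57, 2.83 and 1.49, while *Lyz2*, *Cd68* and *Csf1r* were at -1.71, -0.85 and -0.69. Their summed level, 566 to 776 against 475 to 574 CPM, overlapped. Of the 10 pan-leukocyte genes, 9 fell, with a median of -1.14, among them *Ptprc*, which encodes CD45 (-1.19), and *Coro1a* (-1.37). The tenth, *Lcp1*, was at -0.04 (adjusted p = 0.856). Of all tested genes, 16.5% fell and 12.5% rose. Over the 7 lists beside the T cell lists, 30 of 56 tested genes fell and 3 rose. The pan-leukocyte genes, which T cells also make, gave 9 of those that fell. Over all genes tested, 1763 of 16262 fell without SHMT2fl/fl mouse 1 and 1621 of 16336 without SHMT2fl/fl mouse 3. The number that fell in the 7 lists was 19 of 56 without SHMT2fl/fl mouse 1 and 18 of 56 without SHMT2fl/fl mouse 3. It was 3 for NK cells without any single SHMT2fl/fl mouse. For plasmacytoid dendritic cells it was 2 without SHMT2fl/fl mouse 1, SHMT2fl/fl mouse 2 or SHMT2HKO mouse 2 and 1 without SHMT2fl/fl mouse 3. For B cells it was 1 without SHMT2fl/fl mouse 1 or 3, and 4 without SHMT2HKO mouse 2, without TMM or with ERCC scaling. It was 5 for the pan-leukocyte genes without SHMT2fl/fl mouse 1 or SHMT2HKO mouse 2. Of the 8 hepatocyte markers, 2 rose, *Apob* (0.63) and *Ttr* (0.82). The adjusted p of *Ttr* was 0.0498, close to the threshold, and its values overlapped between genotypes. The part of these cell types in the values of the 9 genes was not tested.

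To set the T cell genes against leukocytes as a whole, each was expressed per 1000 counts of the 10 pan-leukocyte genes in the same library. *Lcp1*, the one of these 10 that did not pass the test, made up 29.6 to 31.3% of their counts in SHMT2fl/fl and 45.8 to 53.1% in SHMT2HKO libraries, so each value is also given without it, a choice made after the data were seen. With all 10 genes in the scale, the same 7 genes were lower in every SHMT2HKO mouse than in every SHMT2fl/fl mouse, where 9.34% of all tested genes were. *Cd3d* had 3.48, 4.74 and 4.87 per 1000 in SHMT2fl/fl mice and 1.80, 1.03 and 0.679 in SHMT2HKO mice, a 3.73-fold lower mean. *Cd3e* was 3.42-fold, *Cd3g* 3.40-fold, *Cd8a* 3.08-fold, *Cd8b1* 2.94-fold, *Lck* 2.55-fold and *Lat* 1.89-fold lower. The exact permutation test, two-sided, gave p = 0.1 for each of the 7, the smallest possible with 3 mice against 3, and 0.143 after adjustment over 10 values. With library sizes set to the pan-leukocyte counts, a scaling chosen after the data were seen, edgeR's quasi-likelihood test called the same 7 genes lower, with adjusted p from 0.00198 (*Cd3g*) to 0.0323 (*Lat*), where 6.94% of all genes tested were called lower. The log2 fold change was then -1.92 for *Cd3d* and -0.91 for *Lat*, and it turned positive for *Cd4* (0.35, adjusted p = 0.519) and *Zap70* (0.51, adjusted p = 0.394). *Zap70* had 27.6, 34.2 and 36.2 per 1000 in SHMT2fl/fl mice and 80.7, 43.2 and 16.6 in SHMT2HKO mice, and *Cd4* had 6.84, 9.68 and 8.30 against 20.0, 7.03 and 4.89. For both genes SHMT2HKO mouse 1 was the highest of the 6 and SHMT2HKO mouse 3 the lowest. The pan-leukocyte scalings were not fitted with a mouse left out. Without *Lcp1* in the scale, 6 of the 7 genes were still lower in every SHMT2HKO mouse than in every SHMT2fl/fl mouse, where 4.43% of all tested genes were, and the ratios of the means came down to 2.62-fold for *Cd3d*, 2.51-fold for *Cd3e*, 2.46-fold for *Cd3g*, 2.20-fold for *Cd8a*, 2.14-fold for *Cd8b1* and 1.84-fold for *Lck*. *Lat* then overlapped, with 13.4, 9.68 and 10.8 per 1000 in SHMT2fl/fl mice and 10.7, 6.26 and 8.03 in SHMT2HKO mice. The edgeR test on that scale called 5 of the 9 lower, where 3.29% of all tested genes were, and it no longer called *Cd8b1* (-1.08, adjusted p = 0.0607) or *Lat* (-0.44, adjusted p = 0.3). *Cd4* and *Zap70* were then at 0.87 (adjusted p = 0.126) and 1.03 (adjusted p = 0.146). The median of all genes moved by 0.75 with the pan-leukocyte scaling and by 1.24 without *Lcp1* in it, on the log2 scale. On the scale of all 10, the 9 genes summed, of which *Zap70* gave the most counts, came to 101, 97.7 and 102 per 1000 in SHMT2fl/fl mice and 122, 70.1 and 43.5 in SHMT2HKO mice, which overlap. The log2 difference of that sum was -0.48, and it was -0.86 without SHMT2HKO mouse 1 and -0.12 without SHMT2HKO mouse 3. Without *Lcp1* in the scale the sum was 139 to 147 in SHMT2fl/fl mice and 261, 141 and 80.3 in SHMT2HKO mice. The mean of the second group was then the higher, which rests on SHMT2HKO mouse 1 alone. SHMT2HKO mouse 2 was within the range of the SHMT2fl/fl mice and SHMT2HKO mouse 3 below it.

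**Figure D4:**
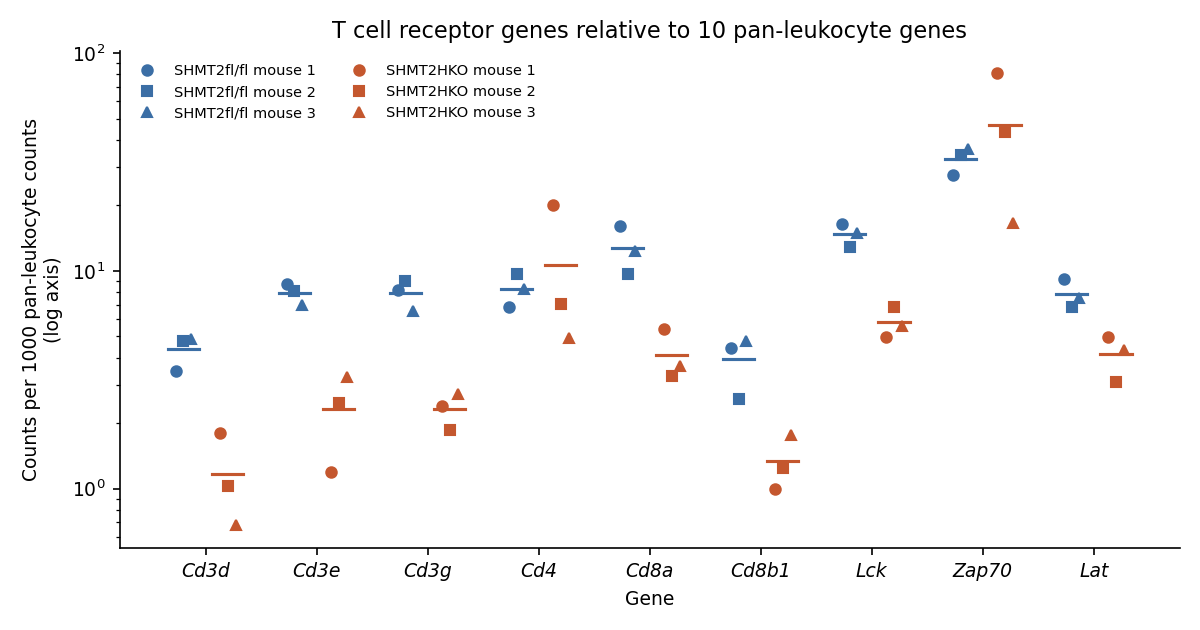
Counts of each of the 9 genes per 1000 counts of 10 pan-leukocyte genes in the same library, on a log axis, with colors, shapes and mean lines as in the plot of levels by mouse. The genotypes are apart for 7 genes, by 1.89- to 3.73-fold in the mean, and overlap for *Cd4* and *Zap70*; with *Lcp1* left out of the 10 genes, *Lat* overlaps as well.

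The genes whose pattern over the 6 samples was most like that of the 9, by Pearson's r between their log2 CPM and the mean of the standardized log2 CPM of the 9, were *Gnb4*, *Pygm*, *Gldn*, *Sept4* and *Rab40c*, with r from 0.999 to 0.997. The 6 libraries fall into 2 genotypes, and 1409 of 15044 genes compared had an r over 0.9. The measure takes no account of size, and the log2 fold change was -4.31 for *Gldn* and -0.21 for *Rab40c* (adjusted p = 0.208).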

How the data were processed

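The RNA-seq libraries of 6 livers were analysed. The authors trimmed reads with Trimmomatic 0.36 and aligned them with STAR 2.5.2b to GRCm38 with the ERCC sequences. The submitters' processing notes list featureCounts of Subread 1.5.2, and the authors deposited unnormalized counts of unique hits per gene. The use of strand is not given in the sources used here. Of 49763 entries, 92 were ERCC RNAs, used in 1 alternative scaling only, and 259 gene IDs had no entry in GENCODE vM21 (0.0116% of counts).

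The filter was filterByExpr and the scaling TMM, both from edgeR 4.0.16 under R 4.3.3. Genotype was the only term of the robust quasi-likelihood fit, whose two-sided p-values were adjusted by Benjamini-Hochberg over 16089 genes. A gene fell or rose at an adjusted p under 0.05. Standard errors and intervals were taken from the F statistic. Symbols, positions and exon lengths for RPKM are from GENCODE vM21. DESeq2 1.42.0, limma-voom (limma 3.58.1), other scalings and filters, the replicate block and leaving out each mouse were alternatives. The code was tested on simulated counts. Every pair of libraries of 1 genotype differed by more than sampling noise (chi-square per gene 26.9 to 153), and each was counted as a sample.

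The genes and lists were chosen with earlier results of these data known. Named are the 9 genes, *Shmt2*, list genes with an adjusted p under 0.05, the rest of the receptor complex and the 5 genes most like the 9. Some list genes that the rule would name are not reported here, and the list counts include them. List genes named as not passing the test were chosen after their values were seen.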

Additional observations from a re-analysis of the deposited data

How the results depend on the processing

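The 7 genes that fell kept their direction under all 16 alternatives fixed for them, as far as they were tested. The number called lower was 7 under all of these except at least 10 counts in every sample, where 5 of the 9 genes remained in the test and 3 were called, and when mice were left out, where it ranged from 6 (without SHMT2fl/fl mouse 3) to 8 (without SHMT2HKO mouse 1). The log2 fold change of *Zap70* ranged from -0.82 to 0.012 with a mouse left out, above 0 only without SHMT2HKO mouse 3, and with pan-leukocyte scaling, added after seeing the data, *Cd4* turned to 0.35 and *Zap70* to 0.51 (0.87 and 1.03 with *Lcp1* left out of that scaling, which left 5 of the 7 calls). Of the other T cell lists, 42 of 57 tested genes were called lower without TMM and 14 of 38 with at least 10 counts in every sample. With a mouse left out, 13 to 30 were called lower. For the other leukocyte lists, the pan-leukocyte genes included, the range with a mouse left out was 18 to 34. The summed variable segments differed by -2.47 without TMM and by -2.86 with ERCC scaling, on the log2 scale. Over all genes, 2651 were called lower, 4923 without TMM and as few as 1621 with a mouse left out. Mice with the same number did not deviate together (r of -0.03, 0.05 and -0.10 across genes for numbers 1, 2 and 3), so the number was not taken as a pairing. With the replicate block, 7 of the 9 genes, 23 genes of the other T cell lists and 28 of the other leukocyte lists were called lower. Depth limits the SHMT2HKO values most, where the CD3 and *Cd8b1* values rest on 5 to 24 counts per library. With 3 mice per group, p-values measure only the spread between these mice.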
